A study of Mus musculus with 2 samples.

Results

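The genes described here were 10 genes of the major histocompatibility complex (MHC) class I presentation pathway. They were taken by symbol from the 32285 features of the count matrices, and all 10 were found once each. The group held the heavy chains H2-K1 and H2-D1, the light chain B2m, the peptide transporter subunits Tap1 and Tap2, tapasin (Tapbp), the immunoproteasome subunits Psmb8, Psmb9 and Psmb10, and the transactivator Nlrc5. The rule itself used gene names only.

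The study examined how the tumor microenvironment of subcutaneous MC38 tumors, a mouse colon carcinoma line, differed after intratumoral MSA-2, a small-molecule agonist of the innate sensor STING. Single-cell 3′ RNA sequencing was carried out on 1 library per condition, and each library pooled the tumors of 3 mice. The mice were C57BL/6, aged 6 to 8 weeks per the methods, and 3 intratumoral injections were given 3 days apart, with collection on day 7 per the methods. The control library is labelled untreated, whereas the series record describes a vehicle of saline with 10% DMSO, so "untreated" below means mice without MSA-2. Both libraries shared the line, the strain and the injected site. With 1 library per condition, mouse-to-mouse variation and treatment cannot be told apart, no test was possible, and every interval below is a 95% interval that covers counting error only.

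Class I molecules display peptides from the cell's own cytosol to CD8+ T cells. The immunoproteasome, in which Psmb8, Psmb9 and Psmb10 replace the constitutive subunits Psmb5, Psmb6 and Psmb7, cuts proteins into peptides. The Tap1–Tap2 transporter carries these into the endoplasmic reticulum, where tapasin loads them on the heavy chain paired with β2-microglobulin. Nlrc5 is recruited to class I promoters and drives their transcription, and interferons are known to induce the whole pathway.

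Most of these genes lie together in the MHC region. In RefSeq on GRCm38.p6, 7 of the 10 genes were on chromosome 17, from Tapbp at chr17:33919478-33929290 to H2-D1 at chr17:35263094-35267497, with H2-K1 at chr17:33996012-34000619, Psmb9 at chr17:34182030-34187330, Tap1 at chr17:34187556-34197225, Psmb8 at chr17:34198195-34201454 and Tap2 at chr17:34204479-34216321. B2m was at chr2:122147687-122153082, Nlrc5 at chr8:94434335-94527272 and Psmb10 at chr8:105935728-105938392. The 250 bases before the transcription start were found in the promoter table for 8 of the 10 genes. Those of Tap2 and Nlrc5 were not in that table, and for H2-K1 1 of 2 listed starts was used. That start, chr17:34000347, and the 250 bases before it lie inside the bounds given above for H2-K1. Distances to the H2-K1 start depend on this choice. The starts of Tap1 and Psmb9 point away from each other with 225 bases between them, so both genes share those 225 bases of upstream sequence. The promoters of the heavy chains and the light chain are shown because they carry a shared arrangement of motifs, and that of Tap1 because it is also the Psmb9 promoter. Each is written 5′ to 3′ on the gene's own strand and ends at the base before the start, with capitals marking the motifs searched.
H2-K1, chr17:34000348-34000597, minus strand: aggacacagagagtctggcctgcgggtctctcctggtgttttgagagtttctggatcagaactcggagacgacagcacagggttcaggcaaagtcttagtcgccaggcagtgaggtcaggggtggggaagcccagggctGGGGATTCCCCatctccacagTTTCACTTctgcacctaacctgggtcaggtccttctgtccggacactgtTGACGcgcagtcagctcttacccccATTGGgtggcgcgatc
H2-D1, chr17:35262844-35263093, plus strand: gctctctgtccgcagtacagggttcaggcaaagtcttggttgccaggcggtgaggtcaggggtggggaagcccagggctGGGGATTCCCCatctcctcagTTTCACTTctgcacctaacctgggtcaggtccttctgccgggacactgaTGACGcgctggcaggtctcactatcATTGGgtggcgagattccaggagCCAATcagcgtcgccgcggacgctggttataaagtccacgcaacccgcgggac
B2m, chr2:122147437-122147686, plus strand: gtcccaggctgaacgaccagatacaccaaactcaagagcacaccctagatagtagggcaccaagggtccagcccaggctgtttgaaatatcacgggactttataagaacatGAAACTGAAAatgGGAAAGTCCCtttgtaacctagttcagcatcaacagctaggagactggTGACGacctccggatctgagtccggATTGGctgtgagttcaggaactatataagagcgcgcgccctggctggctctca
Tap1, chr17:34187306-34187555, plus strand: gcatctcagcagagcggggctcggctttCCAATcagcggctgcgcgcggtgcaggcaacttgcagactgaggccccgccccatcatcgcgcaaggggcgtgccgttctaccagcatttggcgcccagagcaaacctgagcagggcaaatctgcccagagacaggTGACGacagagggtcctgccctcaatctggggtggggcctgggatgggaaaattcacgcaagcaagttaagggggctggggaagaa

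In H2-K1, H2-D1 and B2m the letters TGACG, a partial site of the cyclic AMP response element, were followed after exactly 20 bases by ATTGG, the CCAAT box read on the opposite strand. The TGACG began 41 bases before the start in H2-K1, 101 in H2-D1 and 78 in B2m. These letters, 10 to 30 bases apart, were present in 211 of 32851 mouse promoters of the same length (0.642%), and exactly 20 bases apart in 30 of them (0.0913%); this spacing was chosen after the sequences had been seen. The same 3 promoters held an NF-κB consensus, found in 3.90% of all promoters, and the interferon regulatory factor (IRF) element AANNGAAA, found in 21.3%, both searched on both strands. The B2m match to AANNGAAA overlapped a match to the longer core of the interferon-stimulated response element (GAAA, any 2 bases, GAAA), which was present in 2.98% of promoters. In Psmb8 only the letters TTCNNNGAA, the gamma-activated site, were matched (7.02% of promoters). TGACG alone was present in 5 of the 8 promoters against 17.8% of all, CCAAT in 6 of the 8 against 33.8%, where the Tap1 and Psmb9 matches are the same bases counted once for each gene. None of the letters searched were in that window of Psmb10. These matches are descriptions of sequence, and binding was not measured.

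Each cell was placed in a class by its marker genes, and the unique molecular identifiers (UMIs, 1 per captured transcript) of a class were summed within a library and scaled to the total of that class as counts per 1e6 UMIs (CPM). Since reads came from the 3′ end of transcripts, CPM was not divided by gene length. Whether reads in introns were counted is not stated, and a dependence of CPM on gene length was not tested. The untreated library held 14386 barcodes with a median of 8372 UMIs and the MSA-2 library 14617 with a median of 8661, of which 13334 and 13393 cells were kept. In all, 53 barcodes occurred in both libraries, and without the 89 kept cells that carried them the median log2 ratio of the 10 genes stayed within counting error of its value in each of the tumor, stromal and immune groups. The tumor compartment comprised 6388 untreated and 6900 MSA-2 cells, fibroblasts 195 and 623, endothelial cells 60 and 76, macrophages 3859 and 1251, monocytes marked by Ly6c2 269 and 770, neutrophils 26 and 2576, dendritic cells 214 and 22, T cells 1152 and 140, and NK cells 200 and 112. The labels call the cells tumor cells, but of 11 epithelial and tumor markers 9 were below 1 CPM in the tumor compartment of both libraries, among them Krt8, Krt18 and Epcam. The other 2 were Krt14 (22.5 CPM untreated, 7.67 CPM with MSA-2) and Areg (24.9 and 13.7 CPM). Fibroblast markers were present, and their list summed to 2073 and 2593 CPM, beside 54543 and 30899 CPM in fibroblasts, with Col3a1 lower (1244 and 761 CPM) and Dcn higher (449 and 1476 CPM) in the MSA-2 library. Their part in the differences below was not tested. The compartment is therefore defined only by cells with at least 3000 UMIs whose marker levels fell under the immune, stromal and mast cell cutoffs. It held 80.2% of all UMIs untreated and 84.5% with MSA-2. Its share of the UMIs of single genes lay around those values, between 70.2% (Nlrc5) and 87.7% (Psmb10) in the untreated library and between 73.8% (Nlrc5) and 90.3% (Psmb8 and Psmb10) in the MSA-2 library.

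The heavy and light chains were abundant in every class of both libraries. In the untreated library H2-K1 was highest in endothelial cells (3308 CPM), followed by T cells (2718) and NK cells (2614), whose intervals overlapped each other, macrophages (2562), the tumor compartment (2200), and then dendritic cells, Ly6c2 monocytes, fibroblasts and neutrophils between 1868 and 1583 CPM with overlapping neighbours. In the MSA-2 library the order differed. Endothelial cells (3182 CPM) and fibroblasts (3180) led with overlapping intervals, and the tumor compartment was last at 1622 CPM. The tumor compartment was also last in that library for H2-D1, B2m, Tap1 and Tapbp. The span between the highest and lowest class was about as wide for H2-K1 (2.09-fold untreated, 1.96-fold with MSA-2) as for H2-D1 (1.95 and 1.68) and B2m (2.09 and 1.92).

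The immunoproteasome subunits and Nlrc5 separated the classes more. Psmb9 spanned 7.22-fold in the untreated library, from 75.2 CPM in fibroblasts to 543 CPM in dendritic cells, and 5.35-fold in the MSA-2 library, with the same classes at the ends. Nlrc5 spanned 7.48-fold, from 16.2 CPM in fibroblasts to 121 CPM in T cells, and 4.75-fold with MSA-2, from 41.8 CPM in NK cells to 198 CPM in T cells. Psmb10 was the exception among the immunoproteasome genes. It was higher in the tumor compartment (334 and 289 CPM) than in any other of the 9 classes except the untreated neutrophils, whose interval overlapped (the 10 MSA-2 pericytes, which are not among the 9, were at 332 CPM, from 211 to 499), and dendritic cells, first for Psmb8 and Psmb9, were near the bottom for Psmb10 in the untreated library (134 CPM). Fibroblasts had the lowest Psmb8 and Psmb9 of the 9 classes in both libraries, although their untreated Psmb9 interval overlapped that of neutrophils (3 UMIs).

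**Figure D1:**
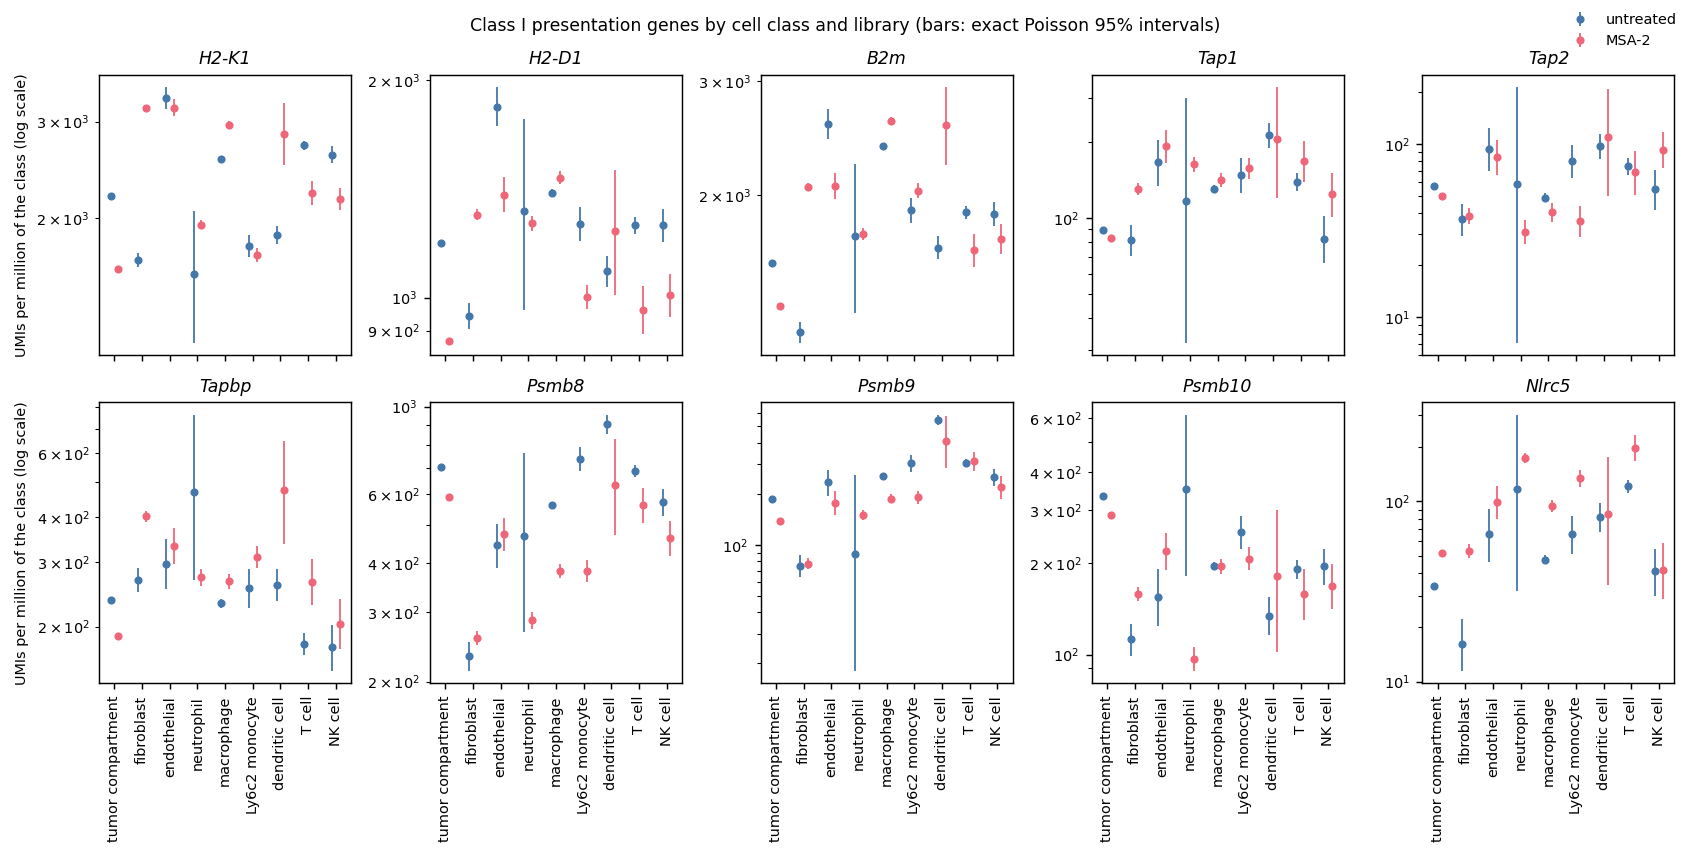
Level of each of the 10 genes (CPM, log axis with its own range in each panel) in 9 cell classes of the untreated (blue) and MSA-2 (red) library; bars are exact Poisson 95% intervals for 1 library per condition. In the H2-K1 panel the tumor compartment goes from 2200 to 1622 CPM while fibroblasts go from 1682 to 3180 CPM.

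In the tumor compartment 9 of the 10 genes were lower in the MSA-2 library and Nlrc5 was higher. H2-K1 was at 2200 CPM in the untreated library and 1622 CPM in the MSA-2 library, a log2 ratio of -0.44 (-0.45 to -0.43). H2-D1 was at 1190 and 871 CPM (-0.45, from -0.46 to -0.44), and B2m was at 1576 and 1352 CPM (-0.22, from -0.23 to -0.21). The light chain thus differed less than its partners. B2m UMIs per heavy-chain UMI were 0.47 untreated and 0.54 with MSA-2, while the share of H2-K1 among H2-K1 and H2-D1 UMIs was 64.9% (64.8 to 65.0) and 65.1% (64.9 to 65.2). Reads shared between H2-K1, H2-D1 and the H2-Q genes, which are near-identical in places, are dropped in counting, so their levels are uncertain to that extent.

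Of the transport and loading genes, Tapbp was at 236 and 188 CPM (-0.32, from -0.35 to -0.30), Tap2 at 56.7 and 49.9 CPM (-0.18, from -0.23 to -0.14) and Tap1 at 89.8 and 83.1 CPM (-0.11, from -0.15 to -0.08). Tap1 had the smallest difference of the 10 genes. Of the immunoproteasome genes, Psmb9 was at 186 and 138 CPM (-0.44, from -0.46 to -0.41), Psmb8 at 702 and 588 CPM (-0.26, from -0.27 to -0.24) and Psmb10 at 334 and 289 CPM (-0.21, from -0.22 to -0.19). Nlrc5 went the other way, at 33.8 CPM untreated and 51.8 CPM with MSA-2 (0.62, from 0.56 to 0.67), a ratio of 1.53. The transactivator and the 9 other genes therefore stood on opposite sides of 0 in this compartment.

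None of these differences reached a log2 ratio of 1 in either direction. Of 19795 genes with at least 10 UMIs in the compartment, 2.41% were past that size higher and 1.5% lower, with 1 CPM added to both libraries. The median of the 10 genes was -0.24 on that scale, beside a median of 0.03 over all genes. The level of another cell type's markers moved as well. The 11 macrophage markers summed to 739 CPM untreated and 225 CPM with MSA-2 in this compartment (1.85% and 0.77% of their level in macrophages), and the 11 neutrophil markers to 29.4 and 453 CPM (0.08% and 0.45% of their level in neutrophils). Their part in these differences was not tested.

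The distribution over cells was shifted lower with MSA-2. When each tumor-compartment cell was thinned at random to 3000 UMIs, the 10 genes together had a median of 20 UMIs in untreated cells and 15 in MSA-2 cells, with means of 21.5 (SD 9.76 over cells) and 16.3 (SD 6.82). Only 21.6% of MSA-2 cells lay above the untreated median. The upper tail was thinner: above 34 UMIs, the untreated 90th percentile, were 9.89% of untreated and 1.88% of MSA-2 cells. At or below 11 UMIs were 12.6% of untreated and 24.1% of MSA-2 cells. Cells without a UMI of either heavy chain were rare in both, at 0.09% and 0.36%. At 1000 UMIs per cell, H2-K1 was detected in 86.3% of untreated and 78.0% of MSA-2 cells, and Nlrc5 in 4.16% and 6.48% (without thinning, H2-K1 in over 99% of both and Nlrc5 in 44.8% and 57.4%). No class should lack class I transcripts, so the share given by free RNA could not be read from these genes.

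**Figure D2:**
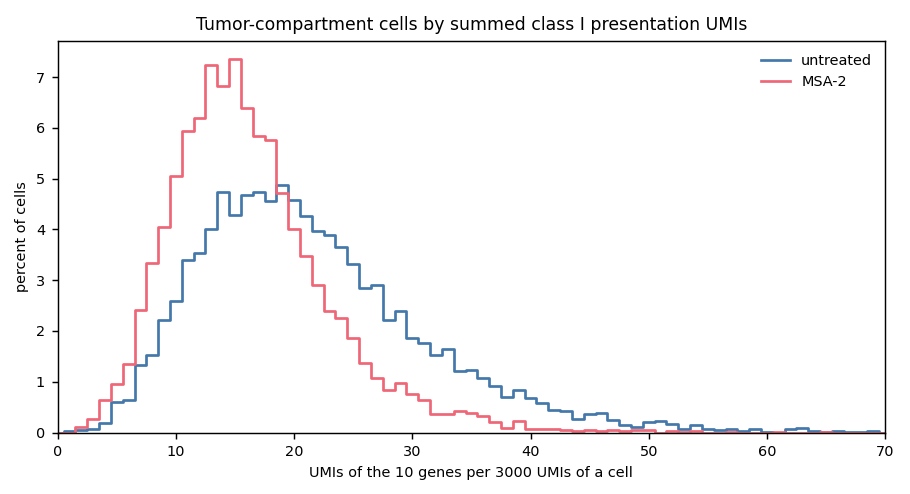
Percent of tumor-compartment cells (vertical axis) by the summed UMIs of the 10 genes after thinning each cell to 3000 UMIs (horizontal axis), for 6388 untreated (blue) and 6900 MSA-2 (red) cells. The MSA-2 curve peaks lower and falls off sooner, with medians of 15 and 20 UMIs.

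Within the untreated tumor compartment the genes also varied between clusters of cells, which were made without these 10 genes. Clusters 0, 1 and 2 were nearly all untreated cells and clusters 16, 17 and 18 nearly all MSA-2 cells, so library and cell state cannot be told apart here. H2-K1 was at 3080 CPM in cluster 1 (2260 untreated cells), and at 1808 and 2043 CPM in clusters 0 and 2, whereas clusters 16, 17 and 18 lay between 1540 and 1691 CPM. Cluster 1 was led by genes such as Enpp2, Aspn, Ogn and Btg2 and had the highest level of all 10 genes among the untreated clusters, although for Nlrc5 and Psmb8 its interval overlapped that of 1 other cluster. For 4 of the 10 genes all 3 MSA-2 clusters lay below all 3 untreated clusters, namely H2-K1, H2-D1 (untreated 1004 to 1655 CPM, MSA-2 831 to 905), Tapbp (213 to 295 and 171 to 201) and Psmb9 (165 to 216 and 122 to 162). That was so for 12.6% of all 19795 genes, and 14.1% lay above without overlap. The ranges overlapped for the other 6 genes, for example for B2m (1274 to 2270 and 1243 to 1488 CPM), Tap1 (81.9 to 111 and 80.2 to 86.0) and Psmb8 (634 to 756 and 513 to 748).

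Nlrc5 did not follow that order. It was at 41.1, 41.4 and 18.7 CPM in clusters 0, 1 and 2 and at 53.3, 25.1 and 61.8 CPM in clusters 16, 17 and 18, so 1 low cluster was present in each library. Those low clusters, 2 and 17, were not low in Psmb8 (747 and 748 CPM) or Psmb10 (360 and 369 CPM), which in cluster 17 were the highest of the MSA-2 clusters. One further MSA-2 cluster of 190 cells, with neutrophil markers among its leading genes, was left unnamed. With clusters as classes, which left it out, the median of the tumor compartment was -0.24 as before.

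The direction was the same in cycling and other cells of the compartment. Cells with at least 3 of 10 cycling markers (1696 untreated, 2379 MSA-2) had a log2 ratio for H2-K1 of -0.30 (-0.31 to -0.29), and the remaining cells (4692 and 4521) of -0.49 (-0.50 to -0.48). B2m was at -0.07 and -0.27 in the same split, Psmb10 at -0.06 and -0.26, Psmb9 at -0.42 and -0.45, and Nlrc5 at 0.55 and 0.66. Cycling cells carried less H2-K1 than the others within each library, by -0.34 untreated and -0.15 with MSA-2. For Nlrc5 the difference was 0.02 (-0.06 to 0.11) untreated and -0.09 (-0.15 to -0.03) with MSA-2.

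In fibroblasts, the collagen-rich stromal cells, all 10 genes had a ratio above 0, although those of Tap2 and Psmb9 were small and turned below 0 without a cell filter, with doublets kept and, for Psmb9, with a stricter gate or equal weight per cell. H2-K1 was at 1682 CPM in 195 untreated cells and 3180 CPM in 623 MSA-2 cells, a log2 ratio of 0.92 (0.87 to 0.97) or 1.89-fold. B2m was at 1231 and 2061 CPM (0.74, from 0.69 to 0.80) and H2-D1 at 943 and 1302 CPM (0.47, from 0.40 to 0.53). H2-K1 accordingly made up 64.1% (62.9 to 65.2) of the heavy-chain UMIs in untreated and 71.0% (70.5 to 71.4) in MSA-2 fibroblasts, beside 64.9% and 65.1% in the tumor compartment. B2m per heavy-chain UMI was 0.47 and 0.46.

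Tap1 was at 81.4 and 130 CPM in fibroblasts (0.68, from 0.46 to 0.90) and Tapbp at 268 and 402 CPM (0.58, from 0.46 to 0.70), whereas Tap2 was at 36.6 and 38.1 CPM with an interval that included 0 (0.06, from -0.28 to 0.41). Psmb10 was at 112 and 158 CPM (0.49, from 0.31 to 0.69), Psmb8 at 232 and 258 CPM (0.15, from 0.02 to 0.29) and Psmb9 at 75.2 and 77.2 CPM (0.04, from -0.20 to 0.28). Psmb9 and Tap1, which share an upstream region, therefore differed from each other in fibroblasts. Nlrc5 was at 16.2 CPM (39 UMIs) in untreated and 53.0 CPM (483 UMIs) in MSA-2 fibroblasts, a log2 ratio of 1.71 (1.24 to 2.22), and was the only one of the 10 past a ratio of 1, except that H2-K1 also passed it (1.15) with TMM scaling. Over 13471 genes in fibroblasts 7.22% were past it higher and 7.49% lower. The median of the 10 genes was 0.54 and that of all genes was -0.14. For 7 of the 10 the interval lay below 0 in the tumor compartment and above 0 in fibroblasts, as for 1.96% of the 13309 genes with at least 10 UMIs in each class and 2.89% of the 8243 with at least 100, and the reverse held for none of the 10 (background 5.23% and 6.98%). Narrower intervals make this count easier to reach for abundant genes such as these. The count is for the main setting, and the Psmb8 ratio in fibroblasts, though above 0 throughout, ran from 0.06 to 0.38 under the alternatives.

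The fibroblasts of the libraries fell in different clusters. Clustering had no step to remove differences between libraries, so library and cell state cannot be told apart here. Cluster 3 held 197 untreated cells and 1 MSA-2 cell and was led by Col1a1, Col1a2, Cthrc1 and Sfrp2, whereas cluster 14 held 3 untreated and 697 MSA-2 cells and was led by Ptx3, Saa3, Cxcl5 and Serpina3n. The fibroblast marker list itself summed to 54543 CPM untreated and 30899 CPM with MSA-2. Fibroblasts and the tumor compartment together comprised 6583 untreated and 7523 MSA-2 cells. Of these, 11.97% and 15.91% lay within a factor of 2 of the fibroblast cutoff, which are not shares of the fibroblasts alone. The macrophage markers were at 1358 and 288 CPM and the neutrophil markers at 47.8 and 683 CPM in this class. The Ly6c2 monocyte markers were at 4412 and 6979 CPM there. This list, here and in the classes below, holds Fn1, which the monocyte gate itself left out. The sum alone therefore does not measure monocyte RNA, and the part of these markers was not tested. With classes taken from clusters, the median of the 10 genes was 0.55. Per cell thinned to 3000 UMIs, the 10 genes had a mean of 14.7 UMIs in 186 untreated fibroblasts (SD 8.47) and 24.5 UMIs in 587 MSA-2 fibroblasts (SD 9.36).

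**Figure D3:**
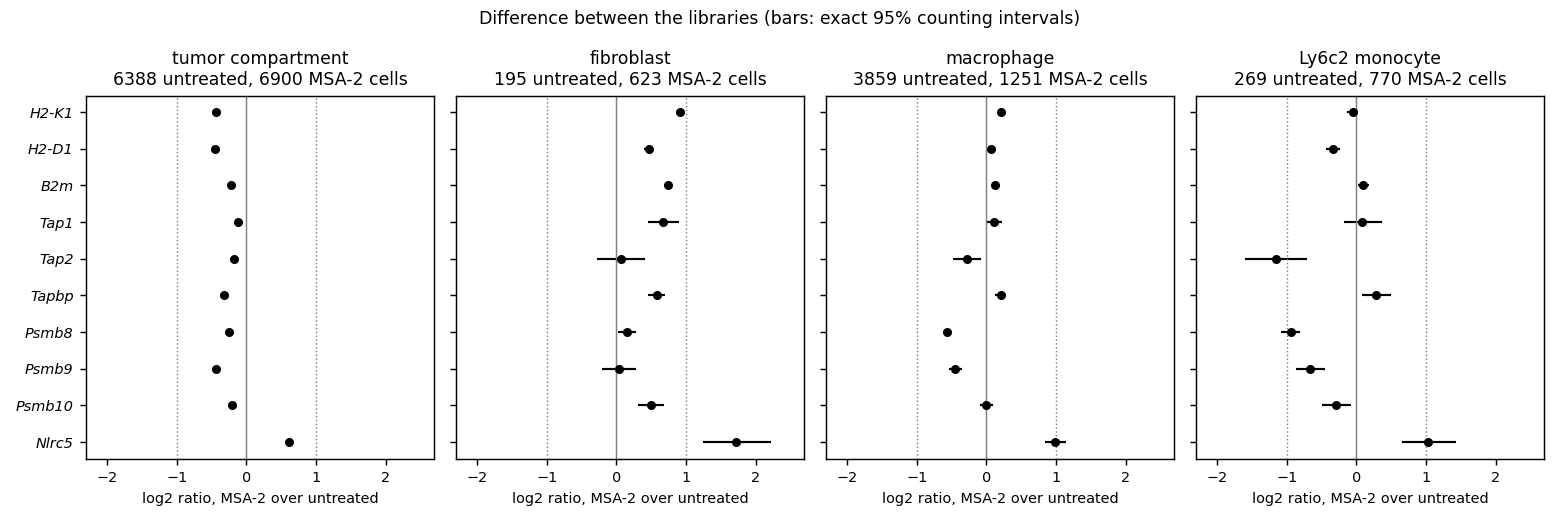
Log2 ratio of MSA-2 over untreated (horizontal axis) for each of the 10 genes in 4 classes, with exact 95% counting intervals for 1 library per condition; solid lines mark 0 and dotted lines a ratio of 1 in each direction. In the tumor compartment 9 genes lie left of 0 and Nlrc5 right of it at 0.62, in fibroblasts all 10 lie right of 0, with the Tap2 and Psmb9 intervals crossing it, and in macrophages Psmb8 and Psmb9 lie left at -0.56 and -0.45.

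Endothelial cells, which line vessels and had the highest H2-K1 of the untreated library, had lower H2-D1 and B2m with MSA-2. H2-K1 was at 3308 and 3182 CPM (-0.06, from -0.14 to 0.03) and changed sign under 6 of 11 alternatives. H2-D1 was at 1838 and 1388 CPM (-0.41, from -0.53 to -0.28) and B2m at 2575 and 2068 CPM (-0.32, from -0.42 to -0.22). Psmb9 was lower (-0.40, from -0.75 to -0.05), Psmb10 was higher (0.50, from 0.12 to 0.88) and Nlrc5 was higher (0.59, from 0.02 to 1.19), while the intervals of Tap1, Tap2, Tapbp and Psmb8 included 0. Under the alternatives H2-D1, B2m and Psmb9 kept their sign but came as near 0 as -0.22, -0.09 and -0.06. The median of the 10 genes was 0.02 beside -0.12 for all genes, and none of the 10 was past a ratio of 1 (background 7.79% higher, 8.36% lower). In this class neutrophil markers (18.3 and 555 CPM), macrophage markers (800 and 195 CPM), fibroblast markers (333 and 835 CPM) and the endothelial list itself (9300 and 6324 CPM) also differed, and their part was not tested. Only 60 and 76 cells stood behind these values, 36 and 89 Nlrc5 UMIs among them. For all stromal cells together the median was 0.43, with Nlrc5 at 1.11 (0.77 to 1.46) and past a ratio of 1 (background 5.69% higher, 8.66% lower), a call lost with equal weight per cell (0.83) and with 10 CPM added (0.88), and Psmb9 at -0.31 (-0.50 to -0.12), or -0.033 with TMM scaling. Fibroblasts were 195 of 271 stromal cells untreated and 623 of 709 with MSA-2, so the pooled stromal values also carry that difference in class mix. The 16 and 10 pericytes were too few to describe on their own.

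In macrophages the heavy chains, the light chain and tapasin were higher with MSA-2, whereas Psmb8, Psmb9 and Tap2 were lower. H2-K1 was at 2562 and 2963 CPM (0.21, from 0.19 to 0.23), B2m at 2379 and 2601 CPM (0.13, from 0.10 to 0.15), H2-D1 at 1397 and 1465 CPM (0.07, from 0.03 to 0.10) and Tapbp at 231 and 266 CPM (0.20, from 0.12 to 0.28). Psmb8 was at 564 CPM untreated and 382 CPM with MSA-2 (-0.56, from -0.62 to -0.50) and Psmb9 at 255 and 187 CPM (-0.45, from -0.54 to -0.36). Tap2 was also lower (-0.28, from -0.48 to -0.08), although it was at 0.013 with classes taken from clusters. With equal weight per cell H2-D1 was at -0.03. Tap1 was at 131 and 142 CPM (0.12, from 0.00 to 0.22), and Psmb10 was at 196 CPM in both libraries. Nlrc5 was at 47.5 and 94.4 CPM (0.99, from 0.84 to 1.14), just under a ratio of 1, which none of the 10 genes passed (background 5.81% higher, 3.28% lower). Nlrc5 did pass it, at 1.01 to 1.02, under 4 alternatives (no cell filter, doublets kept, classes from clusters and TMM scaling). The median of the 10 was 0.09 beside -0.10 for all genes. Markers of neutrophils (139 and 771 CPM) and of Ly6c2 monocytes (937 and 1936 CPM) were higher in MSA-2 macrophages and the macrophage list was lower (40035 and 29258 CPM), and their part was not tested.

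Untreated macrophages lay mainly in clusters 4 (1951 untreated, 59 MSA-2 cells) and 9 (1977 and 6), and MSA-2 macrophages in cluster 13 (54 and 245) and in cluster 5 (20 and 2034), whose 10 leading genes began with Ifnb1 and held 3 markers of Ly6c2 monocytes (Chil3, F13a1 and Ly6c2). By their gates 47.1% of its cells were macrophages. With clusters as classes, which moved cluster 5 to the monocytes, the macrophage median was 0.31, H2-K1 was at 0.65, Psmb8 at -0.35 and Psmb9 at -0.20. Clusters 4 and 13 held cells of both libraries. H2-K1 was higher with MSA-2 in each of them (0.20, from 0.11 to 0.29, and 1.02, from 0.90 to 1.14). Psmb9 had a ratio of 0.29 in cluster 4 (-0.01 to 0.57) and 0.53 in cluster 13 (0.07 to 1.02), and Psmb8 of -0.34 (-0.59 to -0.09) and 0.34 (0.04 to 0.64). In cluster 4 Tapbp was at -0.32 (-0.73 to 0.06), H2-D1 at -0.04 (-0.18 to 0.10) and B2m at 0.01 (-0.09 to 0.11), so the higher levels of the class were not seen for these genes there. In cluster 13 the intervals of all 10 genes lay above 0, with Tap1 at 1.51 (0.84 to 2.26), Nlrc5 at 1.40 (0.56 to 2.38) and Tap2 at 1.11 (0.0072 to 2.47), on 54 untreated cells. The share of all genes that were higher in cluster 13 was not computed, so this count is not a result about these genes. The sign of Psmb9 was therefore opposite within these shared clusters and over the whole class.

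In Ly6c2 monocytes, which are recruited from blood, Nlrc5 was at 65.6 and 134 CPM (1.03, from 0.65 to 1.42) and Tap2 at 79.9 and 35.9 CPM (-1.16, from -1.59 to -0.71). These were the only 2 of the 10 genes past a ratio of 1 (background 13.4% higher, 12.4% lower), on 69 and 84 untreated UMIs. Psmb8 was at 737 and 382 CPM (-0.95, from -1.08 to -0.81) and Psmb9 at 302 and 191 CPM (-0.66, from -0.87 to -0.46), while H2-K1 had an interval that included 0 (-0.06, from -0.13 to 0.02). B2m per heavy-chain UMI was 0.62 and 0.75. Both calls were lost with equal weight per cell and with 10 CPM added, that of Tap2 also with TMM scaling and that of Nlrc5 also without mitochondrial and ribosomal protein genes. Neutrophil markers (469 and 1709 CPM) and macrophage markers (2194 and 1524 CPM) also differed in this class, and their part was not tested. The monocyte cluster 5 held 20 untreated and 2034 MSA-2 cells, so most of the 269 untreated monocytes lay in other clusters. With clusters as classes, which left those 20 untreated cells, Tap2 was at 0.16, Nlrc5 at -0.51 and Psmb8 at -0.14.

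Neutrophils were nearly absent from the untreated library, so their comparison rests on 26 cells with 54 H2-K1, 12 Psmb10 and 4 Nlrc5 UMIs. The intervals of 9 of the 10 genes included 0. Psmb10 was at 352 CPM untreated and 96.9 CPM with MSA-2 (-1.86, from -2.68 to -0.90), the only one past a ratio of 1, in a comparison in which 53.6% of genes were past it higher and 24.3% lower and the median of all genes was 1.65. TMM scaling, which scales the libraries so that the typical gene is equal, moved the ratios of this class by 1.10. Under it Psmb10 was at -0.75 and H2-K1 (1.40), H2-D1 (1.04), B2m (1.11), Tap1 (1.57), Psmb9 (1.86) and Nlrc5 (1.66) were past a ratio of 1 higher, so neither the count nor its direction held. The neutrophil list itself (37438 and 100207 CPM), macrophage markers (1700 and 432 CPM) and Ly6c2 monocyte markers (1378 and 3515 CPM) also differed in this class, and their part was not tested. In the 2576 MSA-2 neutrophils themselves, Psmb10 (96.9 CPM) and Tap2 (30.9 CPM) were the lowest and Nlrc5 (174 CPM) the second highest of the 9 classes.

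In T cells the heavy and light chains were lower in the MSA-2 library and Nlrc5 was higher. Untreated T cells lay in clusters 7 (718 untreated, 172 MSA-2 cells) and 8 (544 and 4), so most MSA-2 T cells came from 1 of the 2. Cycling markers (906 and 1714 CPM), macrophage markers (1030 and 227 CPM) and neutrophil markers (56.3 and 470 CPM) also differed in this class, and their part was not tested. H2-K1 was at 2718 CPM in 1152 untreated cells and 2225 CPM in 140 MSA-2 cells (-0.29, from -0.37 to -0.21), H2-D1 at 1259 and 961 CPM (-0.39, from -0.51 to -0.27) and B2m at 1883 and 1647 CPM (-0.19, from -0.28 to -0.10). Tapbp was at 179 and 265 CPM (0.57, from 0.33 to 0.80), Psmb8 at 687 and 561 CPM (-0.29, from -0.45 to -0.14) and Nlrc5 at 121 and 198 CPM (0.71, from 0.43 to 0.98). T cells with a Cd8a or Cd8b1 UMI (703 and 85 cells) had the same directions for these genes, with Tapbp at 0.68 (0.40 to 0.96) and Nlrc5 at 0.45 (0.10 to 0.78). T cells with a Foxp3 UMI (74 and 7 cells) had B2m at 0.40 (0.02 to 0.77), H2-K1 at 0.07 (-0.26 to 0.38) and H2-D1 at -0.71 (-1.35 to -0.13), on 91 or fewer MSA-2 UMIs each. In a further subset, the T cells with neither (372 and 48 cells), Nlrc5 was at 1.41 (0.88 to 1.93), Psmb8 at -0.61 (-0.97 to -0.27) and B2m at -0.08 (-0.26 to 0.09). Nlrc5 was past a ratio of 1 in this subset, for which the share of all genes past it was not computed. Over all T cells none of the 10 genes was past a ratio of 1 (background 5.88% higher, 11.2% lower).

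In NK cells H2-K1 was lower (-0.27, from -0.35 to -0.18) and both transporter subunits were higher. Tap1 was at 82.6 and 124 CPM (0.59, from 0.16 to 1.01) and Tap2 at 54.5 and 92.4 CPM (0.76, from 0.25 to 1.28), while Nlrc5 stood at 40.8 and 41.8 CPM (0.03, from -0.66 to 0.71). None was past a ratio of 1 (background 6.63% higher, 8.02% lower). Neutrophil markers (9.98 and 515 CPM) and macrophage markers (865 and 232 CPM) also differed in NK cells. So did Ly6c2 monocyte markers (1330 and 2049 CPM) and the NK list itself (3679 and 7763 CPM), and the part of these markers was not tested. In dendritic cells, of which only 22 remained in the MSA-2 library, H2-K1 was at 1868 and 2853 CPM (0.61, from 0.41 to 0.80), B2m at 1662 and 2561 CPM (0.62, from 0.41 to 0.83), Tapbp at 260 and 473 CPM (0.86, from 0.35 to 1.34) and Psmb8 at 901 and 631 CPM (-0.51, from -0.94 to -0.11). Under the alternatives H2-K1 was as low as 0.32, B2m 0.37 and Tapbp 0.48, and Psmb8 ran from -0.77 to -0.39. Again none was past a ratio of 1 (background 13.9% higher, 29.8% lower). Markers of neutrophils (317 and 1517 CPM), macrophages (1100 and 328 CPM) and Ly6c2 monocytes (853 and 2331 CPM) differed there too, and their part was not tested.

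Over all kept cells of every class, which the tumor compartment dominates, H2-K1 was at 2256 and 1772 CPM (-0.35, from -0.35 to -0.34) and Nlrc5 at 38.6 and 59.3 CPM (0.62, from 0.58 to 0.66), and none of the 10 genes was past a ratio of 1 (background 2.77% higher, 2.72% lower). Over all immune cells, Nlrc5 was at 60.2 and 129 CPM (1.10, from 1.005 to 1.19) and was the only one of the 10 past a ratio of 1 (background 6.76% higher, 5.99% lower). Psmb8 was at 604 and 364 CPM (-0.73, from -0.77 to -0.69) and the median of the 10 genes was -0.10 beside -0.25 for all genes. The mix of classes differed widely between the libraries, and with each class weighted by its share of untreated immune cells the median was 0.01 and Nlrc5 was at 0.91 with 1 CPM added.

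The balance of immunoproteasome and constitutive subunits was set out as the share of each immune subunit in the UMIs of its pair. The chymotrypsin-like subunit Psmb8 made up 70.6% (70.4 to 70.8) of Psmb8 and Psmb5 in the untreated tumor compartment and 69.99% (69.7 to 70.2) in the MSA-2 one, so both members of the pair were lower to a similar extent. Psmb9 made up 41.2% (40.8 to 41.6) of Psmb9 and Psmb6 in the untreated tumor compartment and 31.7% (31.4 to 32.0) with MSA-2, where Psmb6 itself was higher (266 and 297 CPM, log2 ratio 0.16). Psmb10 made up 67.0% and 65.8% of its pair with Psmb7.

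The Psmb9 share was also lower in macrophages, at 53.8% (52.9 to 54.8) and 43.5% (41.6 to 45.4), in Ly6c2 monocytes, at 62.5% (58.1 to 66.7) and 50.3% (47.2 to 53.4), and in dendritic cells, at 73.8% (71.1 to 76.4) and 59.6% (45.8 to 72.4), where the intervals overlapped. The macrophage values compare mostly different clusters, and within the shared clusters 4 and 13 the Psmb9 level had ratios of 0.29 (-0.01 to 0.57) and 0.53 (0.07 to 1.02). The Psmb9 share was 28.3% (24.9 to 32.0) and 29.4% (27.6 to 31.3) in fibroblasts and 64.6% (62.5 to 66.7) and 62.6% (57.3 to 67.7) in T cells. The Psmb8 share was lower in macrophages as well, at 81.7% (81.1 to 82.3) and 74.7% (73.2 to 76.2). In fibroblasts the Psmb10 share was 61.2% (56.5 to 65.8) and 68.3% (66.3 to 70.3), the one of the 3 shares there whose intervals did not overlap.

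**Figure D4:**
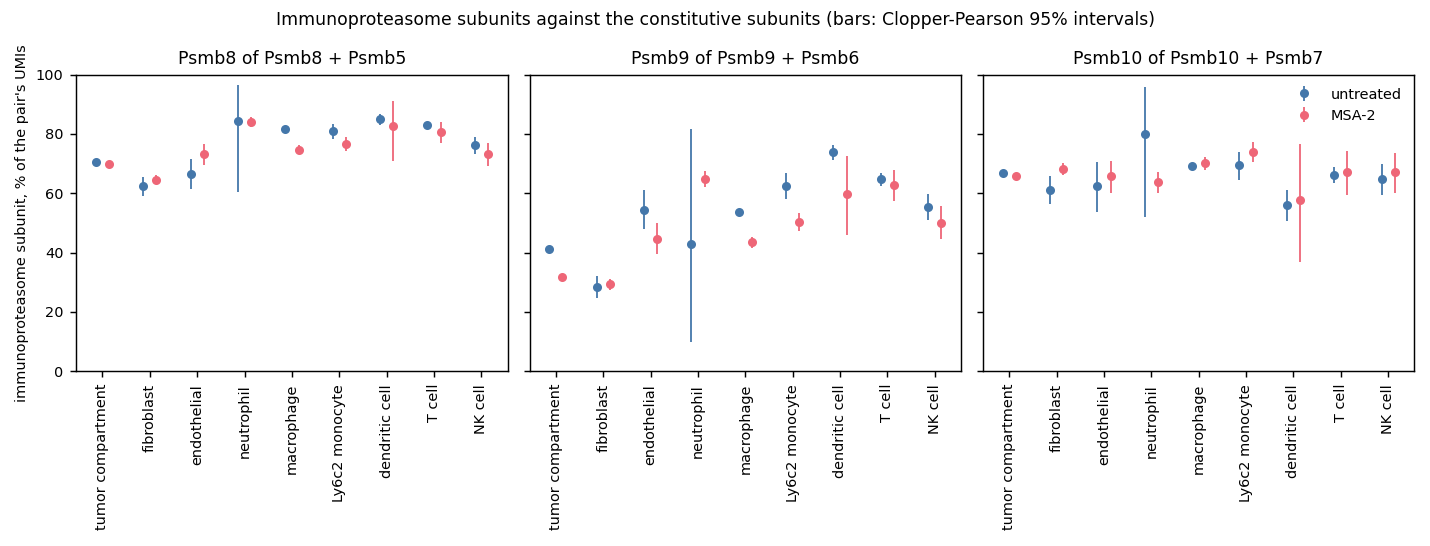
Share of the immunoproteasome subunit in the UMIs of its pair (percent, vertical axis) in 9 classes of the untreated (blue) and MSA-2 (red) library; bars are Clopper-Pearson 95% intervals for counting error in 1 library per condition. The Psmb9 share goes from 41.2% to 31.7% in the tumor compartment and from 53.8% to 43.5% in macrophages, whose cells came mostly from different clusters in each library, while the Psmb8 share of the tumor compartment stays near 70%.

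Of 61 other genes of the pathway found in the files, 1 of those with at least 10 UMIs was past a ratio of 1 in the tumor compartment, where 2.41% of all genes were past it higher and 1.5% lower. A count this low is near that background and is not a result about the pathway. Among 12 tested other class I heavy chains none was past it, with a median of -0.08. H2-Q7 was at 571 and 484 CPM (-0.24), H2-T22 at 276 and 169 CPM (-0.71) and H2-Q4 at 40.5 and 45.1 CPM (0.15). None of 11 other loading and trimming genes (median -0.02; calreticulin, Calr, 564 and 459 CPM), of 3 constitutive catalytic subunits (median -0.13), of 11 other 20S proteasome subunits (median -0.30) or of 7 activator and assembly genes (median 0.03; Psme2, an interferon-inducible activator subunit, 408 and 317 CPM) was past it.

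The gene past it was 1 of 15 transcription factors of class I genes (background 2.41% higher, 1.5% lower). Irf8, a factor of myeloid cells, was at 9.42 and 2.50 CPM (-1.92, from -2.08 to -1.75), in the compartment in which the macrophage markers were at 739 and 225 CPM. The interferon signalling factors Stat2 (51.2 and 99.8 CPM) and Irf9 (23.4 and 45.5 CPM) both had a ratio of 0.96, and Irf1, which binds the IRF element, was at 231 and 305 CPM (0.40). None of these 3 was past a ratio of 1, they were picked after their values were seen, and the median of the 15 factors was 0.07.

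In fibroblasts 2 of 10 tested other heavy chains were past a ratio of 1, both higher (background 7.22% higher, 7.49% lower), namely H2-Q6 (102 and 257 CPM; 1.33, from 1.14 to 1.53) and H2-Q7 (247 and 569 CPM; 1.203, from 1.08 to 1.33), with a median of 0.48. Of 14 tested factors Stat2 (37.4 and 123 CPM; 1.72) and Irf2 (39.5 and 111 CPM; 1.49) were past it higher and Irf8 (17.9 and 5.71 CPM; -1.65) lower. The other 20S subunits had a median of -0.11 there, and none of the loading, 20S, catalytic or activator genes was past the ratio. In macrophages, where 5.81% of all genes were past it higher and 3.28% lower, Lnpep, an aminopeptidase (224 and 478 CPM; 1.10), of 11 loading and trimming genes and Stat2 (64.1 and 163 CPM; 1.35) of 15 factors were past it higher and Ciita, the class II transactivator (26.2 and 1.75 CPM; -3.90), lower. In neutrophils, on 26 untreated cells, 5 of 8 tested other heavy chains were past it higher, as were 5 of 13 tested factors, in a comparison in which 53.6% of all genes were.

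Across the 18 class-by-library sums, the 10 genes did not vary as 1 unit. The Pearson correlation of log2 CPM with the mean of the other 9 was 0.69 for B2m, 0.66 for Tap1, 0.55 for Tap2, 0.52 for Psmb9 and 0.48 for H2-D1, and 0.18 for Tapbp and 0.03 for Psmb10. The sums share 2 libraries and differ in depth, so these values are descriptions. Of 6914 other genes with at least 50 CPM in some sum, those whose levels were most like the mean of the 10 were Cacul1 (0.78), Lrch1 (0.75), Pfkfb3 (0.74), Ramp3 (0.72) and Arhgap26 (0.72).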

How the data were processed

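For 1 untreated and 1 MSA-2 library, the authors deposited matrices of unnormalized UMI counts, which were used as they stand. The submitters' processing notes name Cell Ranger 7.0.0, Seurat 4.3.0 and mm10, while the file headers and the methods give other Cell Ranger versions. The methods state that cells were sorted before sequencing, and they call the cells that passed quality filtering immune, although the numbers given equal all 14386 and 14617 barcodes in the files, which include the tumor compartment.

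Barcodes needed 500 or more genes and no more than 20% mitochondrial UMIs. Scrublet (scanpy 1.11.5, expected doublets 0.8% for every 1000 barcodes) was run per library and removed 705 (5.02%) and 570 (4.08%) barcodes. Classes came from marker gates, whose cutoffs were set after the marker levels had been seen and without the 10 genes. Clusters (Leiden resolution 1, 30 components, 2000 variable genes without the 10) gave 20 clusters as an alternative. Cells of both libraries were clustered together without a step to remove differences between libraries. Total UMIs per class set the precision: 147005920 and 162152763 in the tumor compartment, 2407246 and 9106597 in fibroblasts.

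CPM is a class's counts per 1e6 of its UMIs. Printed ratios are of CPM without an added value, except those of single genes under the alternatives. The latter have 1 CPM added, or 10 CPM in the alternative of that name, so they are not on quite the same scale. Medians and counts past a log2 ratio of 1 use 1 CPM added and genes with at least 10 UMIs. Intervals are exact at 95% (Poisson, conditional binomial, Clopper-Pearson). With 1 library per condition no p-value was computed. Named genes were the 10, other pathway genes past the ratio, and the 5 most alike; other pathway genes were chosen after their values were seen, for contrast. Alternatives changed filters, doublets, gates, scaling (edgeR 4.0.16 TMM), added CPM, depth and class mix. Promoters came from RefSeq on GRCm38.p6. The 10 genes and all lists were chosen with earlier results of these data known. Scripts were tested on simulated data and run in Python 3.11.15 (numpy 2.4.6, pandas 2.3.3, SciPy 1.17.1, scikit-learn 1.9.0, matplotlib 3.10.9) and R 4.3.3.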

Additional observations from a re-analysis of the deposited data

Results flagged for a closer look

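For 7 of the 10 genes the difference between the libraries had opposite directions in the tumor compartment and in fibroblasts, with counting intervals on opposite sides of 0. The same pattern, lower in the tumor compartment and higher in fibroblasts, held for 1.96% of the 13309 genes with at least 10 UMIs in each class and 2.89% of the 8243 with at least 100. On the log2 scale, with MSA-2 divided by untreated, the ratio was -0.44 in the tumor compartment and 0.92 in fibroblasts for H2-K1, -0.45 and 0.47 for H2-D1, -0.22 and 0.74 for B2m, -0.11 and 0.68 for Tap1, -0.32 and 0.58 for Tapbp, -0.26 and 0.15 for Psmb8, and -0.21 and 0.49 for Psmb10. The count of 7 is for the main setting, and the fibroblast ratio of Psmb8 ran from 0.06 to 0.38 under the alternatives. With 1 library per condition, the difference between the classes was not tested.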

How the results depend on the processing

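In the tumor compartment the median log2 ratio of the 10 genes was below 0 under all 11 alternatives (-0.31 to -0.21), and each gene kept its sign in all 11. It moved beyond counting error from -0.24 to -0.31 with TMM scaling, -0.31 with equal weight per cell and -0.21 without mitochondrial and ribosomal protein genes. In stromal cells it moved from 0.43 to 0.70 with TMM. In immune cells (-0.10) it was -0.033 with the stricter cell filter, -0.13 without a filter, -0.13 with doublets kept, 0.16 with TMM, -0.21 with equal weight per cell, -0.17 without mitochondrial and ribosomal protein genes, 0.0010 with at least 3000 UMIs per cell and 0.014 with weighted classes. The immune direction thus depended on the setting, and the cause was not tested. TMM shifted all ratios by -0.07 in the tumor compartment, 0.28 in stromal and 0.26 in immune cells, and in the single classes by -0.26 (dendritic cells) to 1.10 (neutrophils). Fibroblast medians were 0.51 to 0.76. In Ly6c2 monocytes classes taken from clusters turned Tap2 to 0.16 and Nlrc5 to -0.51. Nlrc5 fell under a ratio of 1 in stromal cells with equal weight per cell (0.83) and 10 CPM added (0.88), and in immune cells with the stricter filter (0.87), 10 CPM added (0.98), at least 3000 UMIs per cell (0.93) and weighted classes (0.91). Without a filter on low genes the percentages past a ratio of 1 were 1.48 higher and 0.917 lower in the tumor compartment, 2.47 and 4.15 in stromal cells, and 3.43 and 3.04 in immune cells. Leaving out barcodes found in both libraries, an alternative chosen after the data were seen, moved none of these medians beyond counting error. For a median, counting error means throughout the span from the median of the 10 lower interval bounds to that of the upper bounds. This span is not an interval of the median itself.

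No paired analysis was possible because each condition had 1 library. The depth of untreated neutrophils (26 cells), MSA-2 dendritic cells (22) and endothelial cells limits those comparisons.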
